A study of Capra hircus with 3 samples.

Results

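The cytosolic ribosomal proteins are the proteins of the ribosomes that translate nuclear mRNAs, and their mRNAs were followed here in the longissimus dorsi, the long muscle of the back, of goats (Capra hircus) at 3 postnatal ages. The groups were a kid stage of 2 months, a youth stage of 9 months and an adult stage of 24 months, with no treatment or genotype given. Each stage was 1 RNA-seq library, and the labels leave it unsaid if animals were pooled. The stages could therefore not be tested against each other, and age cannot be told apart from animal, pool or library. Every difference below describes libraries. The genes were the rows of the deposited FPKM table (a read count divided by transcript length and library size) whose product text begins with "ribosomal protein" followed by a large- or small-subunit name, without kinases and "-like" copies. The rule took 77 of 24689 rows. Of these, 67 were coding genes, 43 of the large and 24 of the small subunit. Another 9 were pseudogene rows and 1 was RPS19BP1, a binding partner of RPS19 that is no ribosomal protein itself. The comparisons used the 70 rows with a mean of at least 1 FPKM, among 12121 such rows in the table. These 70 hold all 67 coding genes, 2 pseudogene rows and RPS19BP1. The 7 remaining rows, all pseudogenes, reached at most 0.62 FPKM in any library, and 3 of them were listed at 0 in all 3.

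A ribosome is built from a large subunit, which joins amino acids into a chain, and a small subunit, which reads the mRNA. Each protein is needed in about the same number of copies, and most ribosomal protein mRNAs begin with a run of pyrimidines (a terminal oligopyrimidine start, TOP) through which mTORC1 and LARP1 set their translation together. In skeletal muscle, ribosome content is known as one of the limits on protein synthesis and so on growth, and muscle has its own form of one large-subunit protein, RPL3L.

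The totals behind the FPKM values were 15829474 reads in the kid, 14920689 in the youth and 18399385 in the adult. They were worked out from the steps between FPKM values, and which reads they count was not given. Whole reads per gene were recovered the same way, and each interval below is the 95% interval that counting error alone gives for a ratio of 2 libraries. It takes the library totals as they stand and says nothing about the spread between animals. Intervals were counted for the ribosomal protein rows only, so no share of all rows stands beside those counts. The extraction protocol names mammary tissue while the tissue label names the muscle. All 5 milk genes on the list (CSN1S1, CSN1S2, CSN2, CSN3 and LALBA) had 0 FPKM in every library, and 5 skeletal muscle genes with a row, ACTA1, CKM, MYLPF, MB and TNNT3, summed to 48654 FPKM in the kid, 57634 in the youth and 66970 in the adult.

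The 67 coding genes together took 7.52% of all FPKM in the kid, 6.65% in the youth and 5.92% in the adult. The large subunit held 4.72%, 4.24% and 3.74% in kid, youth and adult, and the small subunit 2.80%, 2.41% and 2.18%. The share was therefore smallest in the adult and largest in the kid for both subunits. The order was the same after the 50 most abundant rows of the table, 1 of them a ribosomal protein gene, were left out, at 11.4% in the kid, 10.4% in the youth and 9.32% in the adult. FPKM is a share of each library, so these figures are levels relative to the other mRNAs and not amounts per fibre. In bulk muscle, fewer cells of a type and less RNA per cell cannot be told apart.

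Single genes sat close to one another. The median level was 514 FPKM in the kid, 454 in the youth and 448 in the adult, and 54, 55 and 56 of the 67 genes lay within 2-fold of the median of their own library. The most abundant 5 by mean FPKM were RPL13A, RPLP1, RPL35, RPS28 and RPS2. RPL13A, which in human cells can leave the ribosome to silence inflammatory mRNAs, was at 1249 FPKM in the kid, 1260 in the youth and 1131 in the adult. RPL35, at the mouth of the tunnel through which the new chain leaves, was at 1143, 1057 and 936 FPKM in kid, youth and adult. RPS28 was at 1090, 978 and 993 FPKM, and RPS2, which lines the path of the mRNA, at 1023, 956 and 887 FPKM in the same order. All 5 were among the highest genes in every library, and only RPLP1 was highest in the adult.

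Among the coding genes the least abundant were RPS15, RPL3 and RPS13. RPS15, a protein of the head of the small subunit, was listed at 27.8 FPKM in the kid, 26.9 in the youth and 27.2 in the adult. A second row named as an S15-like protein (gene 102191702) was at 744, 607 and 606 FPKM in kid, youth and adult, so the RPS15 row does not hold most of the reads given to S15. RPS13 was at 165, 136 and 128 FPKM in kid, youth and adult. RPL3 is described below with its muscle form. Without RPS15, the standard deviation of log2 FPKM over the coding genes was 0.69 in the kid, 0.72 in the youth and 0.74 in the adult. Of the 67 genes, 66 ranked among the 500 highest rows in the kid, 65 in the youth and 64 in the adult, and the median rank was 141, 153 and 164.

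**Figure D1:**
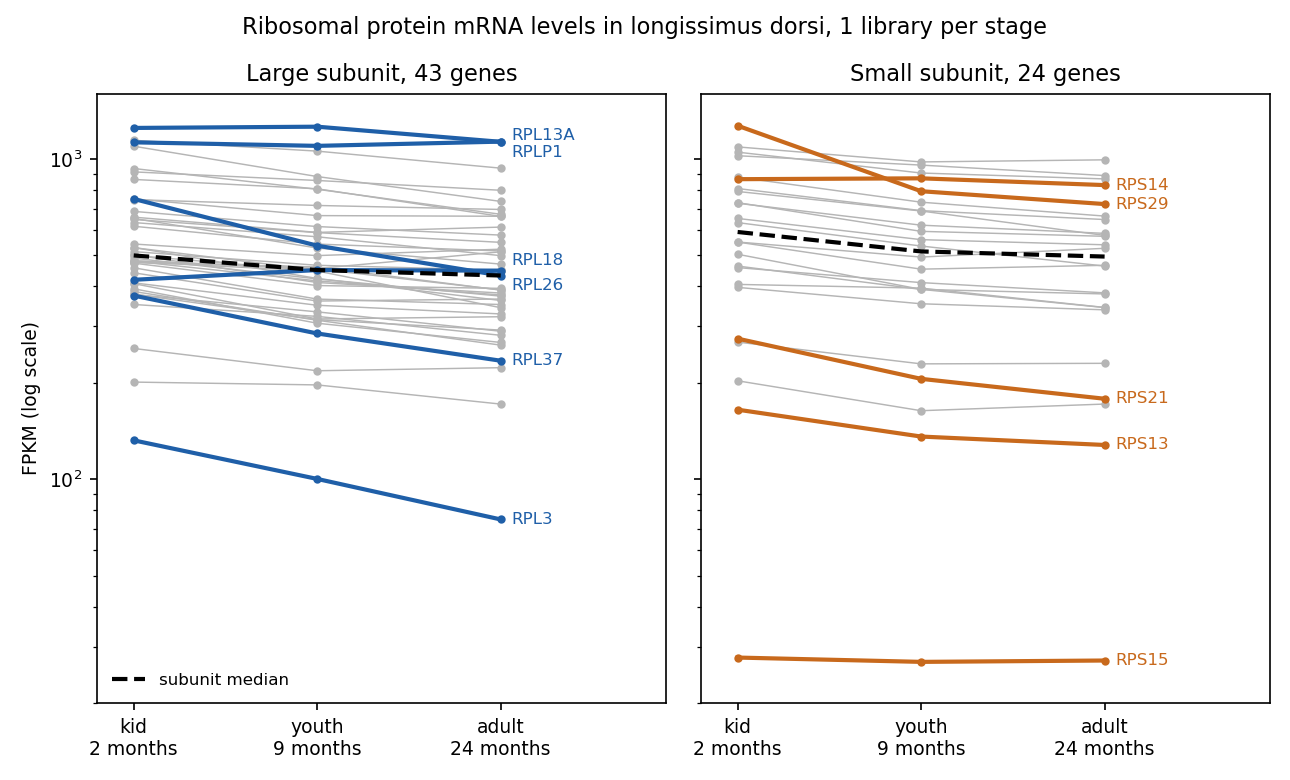
Levels of the coding ribosomal protein genes in FPKM on a log scale, by stage, with the large subunit (43 genes) on the left and the small subunit (24 genes) on the right. Each line is 1 gene, coloured lines carry names and the dashed line is the subunit median. The lines run nearly parallel and slope down from kid to adult, RPL3 and RPS29 more steeply than most, while RPLP1, RPL18 and RPS14 stay nearly level.

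The order of the genes hardly differed between libraries. Over the 67 coding genes, Spearman's rho of the levels was 0.98 for the youth and kid libraries, 0.98 for adult and youth and 0.96 for adult and kid. These coefficients describe the libraries only, since the points of each library share its depth and composition.

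Between youth and kid, nearly every ribosomal protein mRNA was lower in the youth, by a small amount. Of the 70 rows, 67 were lower in the youth library, where 64.3% of all rows tested were lower. The median difference in log2(FPKM + 1) was -0.22, against -0.08 over all rows tested, and it stayed below 0 under every other scaling tried. A row was called where its FPKM + 1 was at least 20% lower or at least 25% higher, the same step on the log2 scale. By that mark 11 rows (15.7%) were lower in the youth, which is near the 14.9% of all rows, and 0 were higher, where 6.02% of all rows were. The share called lower was thus near that of the table at this mark. The counting interval of the ratio lay below 1 for 60 rows, above 1 for 1 row (RPL18) and included 1 for 9. With median-ratio scaling 9 rows turned higher, among them RPL31, whose interval lay below 1.

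Between adult and youth the differences were smaller and more mixed. The adult was lower in 54 of 70 rows (77.1%, against 52.7% of all rows), with a median of -0.10 against -0.02 for all rows. Just 2 rows (2.86%), RPL3 and RPL22, were called lower in the adult, where 16.6% of all rows were. None was called higher, where 15.7% of all rows were. The counting interval lay below 1 for 42 rows, above 1 for 4 (RPL24, RPL8 and RPS10 among them) and included 1 for 24. The direction turned for 3 rows with median-ratio scaling and for 10 without the 50 most abundant rows. The shares called were thus below those of the whole table in either direction.

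Between adult and kid, the widest gap in age, 67 of 70 rows were lower in the adult (95.7%, against 62.5% of all rows). The median was -0.30 against -0.10 for all rows. Of the 70, 30 rows (42.9%) were called lower in the adult, where 22.4% of all rows were, and 0 were called higher, where 9.71% of all rows were. At 1.5-fold the count was 5 rows (7.14%), near the 6.64% of all rows. The counting interval lay below 1 for 66 rows, above 1 for 2 (RPL18 among them) and included 1 for 2 (RPLP1 and RPS15). RPL8, RPS10, RPS14, RPL24 and RPL31, whose intervals lay below 1, turned higher with median-ratio scaling. Scaling mattered for the table as a whole. With libraries scaled to the median ratio of all rows, 17 ribosomal protein rows were called lower in the adult, and the split over all rows became 14.9% lower and 15.7% higher in place of 22.4% and 9.71%. For youth against kid the same scaling gave 9.87% lower and 9.34% higher in place of 14.9% and 6.02%.

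The other abundant mRNAs of the muscle give a scale for these values. The 563 other rows at a mean of at least 100 FPKM had a median difference of -0.05 for youth minus kid, 0.09 for adult minus youth and 0.09 for adult minus kid. Of them, 38.9% were lower in the adult than in the kid. Ribosomal protein mRNAs also had short recovered lengths, with a median of 581 bases among the coding genes against 2008 over all rows tested. A recovered length is the smallest that fits the FPKM values and can fall below the true one, which limits each comparison by length here. The 208 other rows that were both abundant and at most 1000 bases long had a median of 0.16 between adult and kid, with 35.6% lower in the adult. Within the 67 coding genes, Spearman's rho between length and difference was -0.02 for youth minus kid, 0.01 for adult minus youth and 0.06 for adult minus kid. With the mean level it was 0.30, 0.04 and 0.19. These are descriptions over genes of the same libraries.

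**Figure D2:**
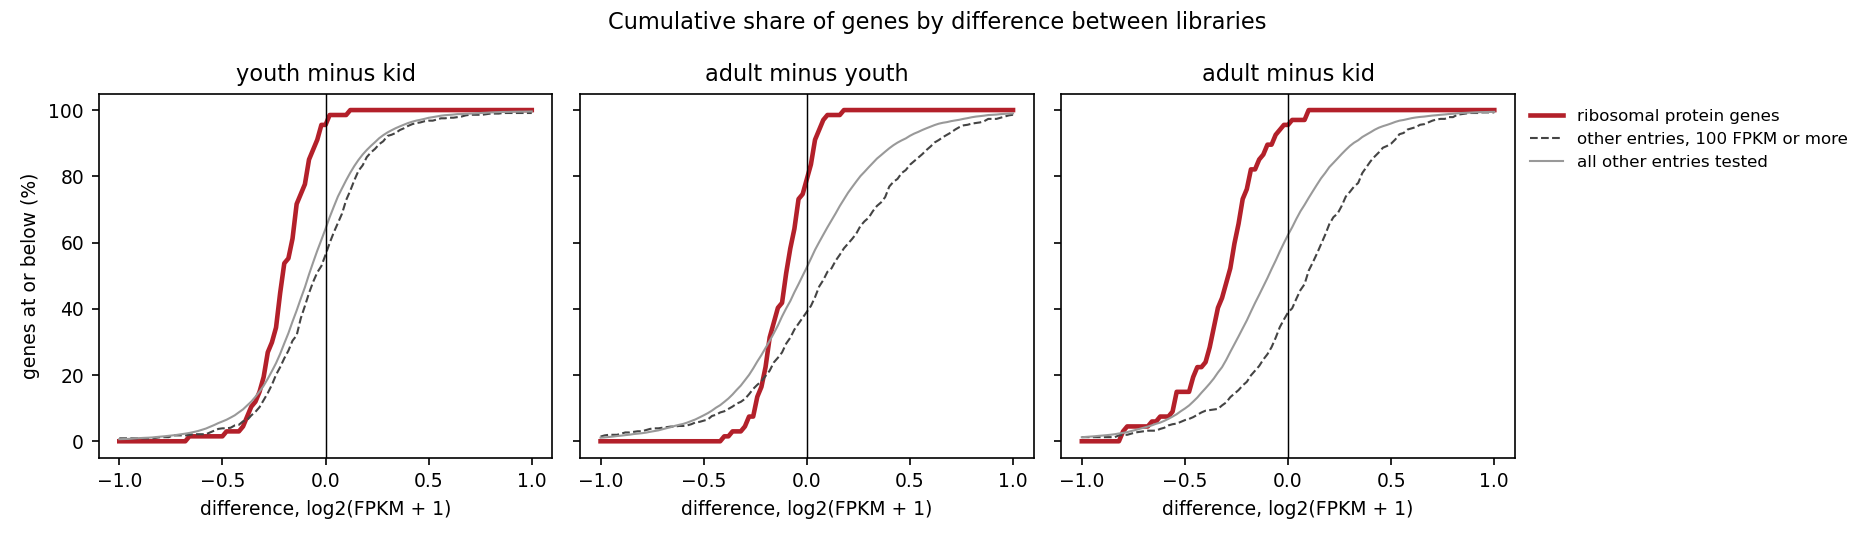
Share of genes (%) at or below each difference in log2(FPKM + 1), for youth minus kid, adult minus youth and adult minus kid. The thick line holds the 67 coding ribosomal protein genes, the dashed line the 563 other rows at 100 FPKM or more and the thin line all other rows tested. The ribosomal protein line climbs within a narrow range mostly left of 0 in each panel, and for adult minus kid it lies left of both other lines over most of its range.

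The spread of the differences was narrow. The interquartile range of the 70 rows was 0.16 on the log2 scale for youth minus kid, 0.19 for adult minus youth and 0.18 for adult minus kid. Over all rows tested the ranges were 0.30, 0.43 and 0.41, and over the 563 other abundant rows 0.31, 0.53 and 0.41. The counting interval of a typical gene reached about 0.06 to either side in each pair, less than the interquartile range of the genes.

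The subunits had similar medians. For youth against kid, the median difference was -0.18 in the large and -0.23 in the small subunit. For adult against youth the large and small subunit had -0.11 and -0.08, and in adult against kid -0.30 and -0.28. The gap, large minus small, was 0.05 for youth minus kid, -0.03 for adult minus youth and -0.03 for adult minus kid, and was not tested. Between adult and kid, 40 of 43 large-subunit genes and 24 of 24 small-subunit genes were lower in the adult as deposited. The large subunit was the more scattered, with interquartile ranges of 0.18, 0.19 and 0.20 in the same order of pairs, against 0.12, 0.10 and 0.14 in the small subunit.

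Across the 3 ages, 65 of the 70 rows were highest in the kid (92.9%, against 44.4% of all rows tested and 23.6% of the other abundant rows). The steady order of kid above youth above adult held for 51 rows (72.9%, against 27.1% of all rows). The lowest library was the adult for 53 rows and the youth for 16, where it was for 5479 and 4516 of all 12121 rows tested.

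A few genes stood well below the rest in the adult. RPL3, RPS29, RPL26, RPL37 and RPS21 were at least 1.5-fold lower in the adult than in the kid, and these were the 5 genes more than 0.3 below the coding median of -0.29. RPS29, a small zinc-binding protein of the head of the small subunit, was at 1269 FPKM in the kid, 793 in the youth and 723 in the adult. The kid library alone was high. RPS29 was 1.60-fold lower in the youth than in the kid (counting interval 1.54 to 1.67) and 1.76-fold lower in the adult than in the kid (1.69 to 1.83), while adult and youth differed 1.1-fold (1.05 to 1.15).

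RPL26, which sits by the exit tunnel, was at 750 FPKM in the kid, 536 in the youth and 432 in the adult. It was lower at each step in age, and adult and kid differed 1.73-fold (1.67 to 1.80). RPL37, a short zinc-finger protein of the large subunit, was at 374, 285 and 234 FPKM in kid, youth and adult, 1.60-fold lower in the adult than in the kid (1.54 to 1.66). RPS21, a small-subunit protein needed to mature its rRNA, was at 275, 206 and 178 FPKM, 1.54-fold lower in the adult than in the kid (1.42 to 1.67). RPL3, the large protein whose arm reaches toward the site where peptide bonds are made, was at 132, 100 and 74.9 FPKM in kid, youth and adult. It was 1.77-fold lower in the adult than in the kid (1.66 to 1.87), and 1.32-fold lower in the youth than in the kid (1.24 to 1.40). All 5 kept the order of kid above youth above adult.

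Several others lay between. RPL27A, whose mutation in mice stabilises p53, was at 1095 FPKM in the kid, 881 in the youth and 737 in the adult, 1.49-fold lower in the adult than in the kid (1.44 to 1.53). RPL39, a very short protein that lines the tunnel, was at 393, 307 and 267 FPKM, 1.47-fold lower in the adult than in the kid (1.39 to 1.56). RPS27, a zinc-finger protein of the small subunit, was at 504, 391 and 343 FPKM, also 1.47-fold lower in the adult than in the kid (1.39 to 1.55). These 3 were lower in the adult than in the youth as well. RPL22, which also binds other cellular and viral RNAs, was at 477, 447 and 343 FPKM in kid, youth and adult. Its step came late, with the adult 1.30-fold lower than the youth (1.24 to 1.37) and the youth 1.07-fold lower than the kid (1.02 to 1.12). The gene for protein L17 (100861018), at the tunnel exit, was at 863, 807 and 661 FPKM in kid, youth and adult, with the adult 1.22-fold lower than the youth (1.18 to 1.26).

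**Figure D3:**
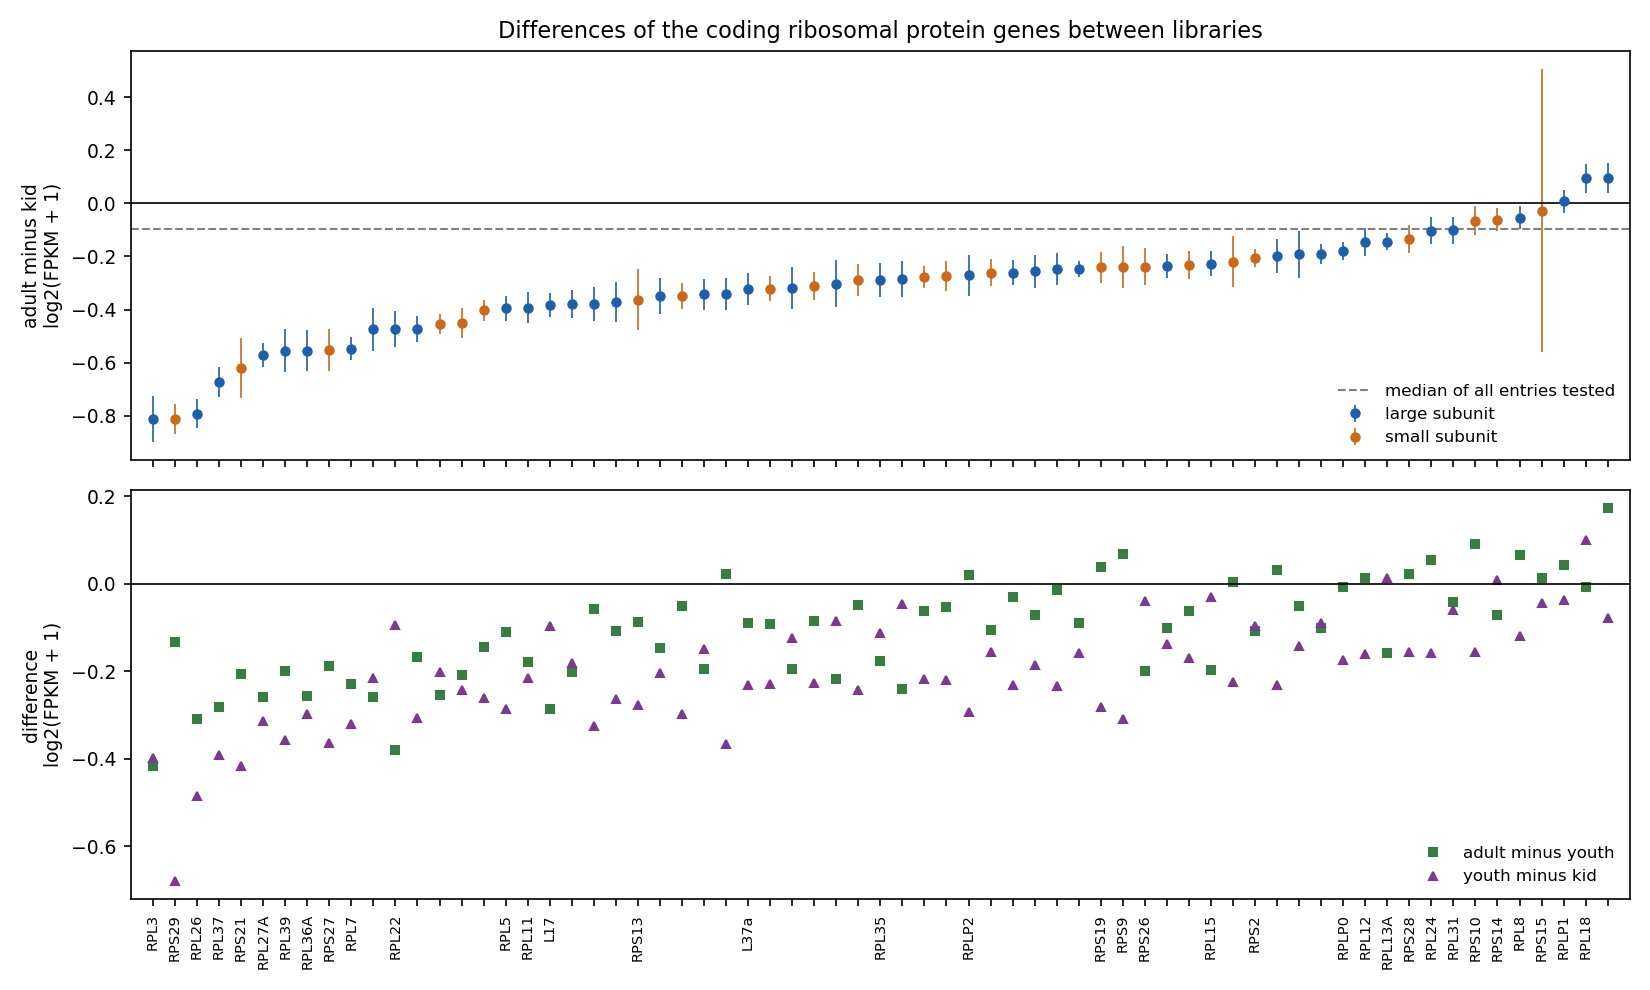
Differences in log2(FPKM + 1) for the 67 coding genes, ordered by adult minus kid (upper panel, with 95% counting intervals and the median of all rows tested as a dashed line) and shown for adult minus youth and youth minus kid in the lower panel. RPL3, RPS29, RPL26, RPL37 and RPS21 lie at the left end and RPL18 near the right end, just above 0. Genes that the text describes carry a name.

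At the other end, a handful of genes did not follow the rest. RPL18, of the large subunit, was at 419 FPKM in the kid, 450 in the youth and 448 in the adult. The kid was its lowest library, alone among the 70 rows, and the difference in log2(FPKM + 1) was 0.10 between youth and kid and 0.09 between adult and kid. It lay more than 0.3 above the coding median for both of these pairs.

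RPS14, whose loss of one copy marks a human bone marrow disease, was at 864 FPKM in the kid, 870 in the youth and 828 in the adult. RPL8, of the large subunit, was at 542, 499 and 523 FPKM, and RPS10, which is tagged with ubiquitin when ribosomes stall, was at 550, 494 and 526 FPKM. RPL24, one of the last proteins to join the large subunit, was at 658, 589 and 612 FPKM in kid, youth and adult. RPL8, RPS10 and RPL24 were thus lowest in the youth. Their small deficit in the adult against the kid turned to a small excess for RPL8, RPS10, RPS14, RPL24, RPL31 and RPS15 with median-ratio scaling, so no direction is given for these 6. RPS9, of the small subunit, was at 203, 164 and 172 FPKM in kid, youth and adult, 1.18-fold lower in the adult than in the kid. RPL15, with the longest recovered length of the set at 2207 bases, was at 201, 197 and 172 FPKM in kid, youth and adult. RPS26, which touches the mRNA where it leaves the subunit, was at 406, 395 and 344 FPKM in the same order. Both were near the kid level in the youth, where their direction turned under every other scaling, and lower in the adult.

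The stalk of the large subunit, an arm that draws in the elongation factors, is made of RPLP0 with pairs of RPLP1 and RPLP2, and RPL12 sits at its base. RPLP0 was at 750 FPKM in the kid, 665 in the youth and 662 in the adult. RPLP1 was at 1126, 1098 and 1132 FPKM and RPLP2 at 441, 360 and 365 FPKM in kid, youth and adult. RPL12 was at 500, 447 and 451 FPKM. Youth and adult were nearly level for all 4, and the kid was highest for RPLP0, RPLP2 and RPL12 but not for RPLP1. The ratio of RPLP1 to RPLP0 was 1.5 in the kid (1.46 to 1.54), 1.65 in the youth (1.60 to 1.70) and 1.71 in the adult (1.66 to 1.76), whereas that of RPLP2 to RPLP0 was 0.588, 0.541 and 0.552. The median of the 4 was -0.17 for youth minus kid, 0.02 for adult minus youth and -0.16 for adult minus kid. Between adult and youth, 3 of the 4 were higher as deposited, and all 4 were lower once the 50 most abundant rows were left out of the scaling. None was called in any pair.

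RPL5 and RPL11 bring the smallest rRNA into the large subunit and, when ribosome assembly fails, bind MDM2. RPL5 was at 502 FPKM in the kid, 411 in the youth and 381 in the adult. RPL11 was at 490, 422 and 373 FPKM in kid, youth and adult. Both kept the order kid above youth above adult, at nearly the same level as each other. RPL5 was 1.32-fold lower in the adult than in the kid (1.28 to 1.36) and RPL11 1.31-fold lower (1.26 to 1.37).

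The 8 genes around the tunnel exit included RPL26, RPL22, RPL39, RPL35, RPL31 and L17. All 8 were lower in each pair as deposited, with medians of -0.10 for youth minus kid, -0.21 for adult minus youth and -0.34 for adult minus kid. In youth against kid, 3 of the 8 turned higher with median-ratio scaling and 1 without the 50 most abundant rows, and in adult against kid 1 turned with median-ratio scaling. The adult was called lower than the kid for 4 of the 8, where 22.4% of all rows were. For the 11 genes of the small-subunit head with a row under the rule, RPS29 among them, the medians were -0.23 for youth minus kid, -0.05 for adult minus youth and -0.26 for adult minus kid. All 11 were lower in the adult than in the kid as deposited, and 9 of 11 with median-ratio or upper-quartile scaling. Of 14 genes mutated in Diamond-Blackfan anaemia, an inherited failure of red cell production, 12 had a row. All 12 were lower in the adult than in the kid as deposited (11 of 12 with median-ratio or upper-quartile scaling), 6 of them called (22.4% of all rows were), and the median was -0.31. RPS29 had the largest difference among them and RPS28 the highest level.

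The muscle form RPL3L was more abundant than RPL3 in every library. It was at 205 FPKM in the kid, 169 in the youth and 192 in the adult, while RPL3 was at 132, 100 and 74.9 FPKM. The ratio of RPL3L to RPL3 was 1.55 in the kid (1.48 to 1.62), 1.69 in the youth (1.60 to 1.78) and 2.56 in the adult (2.43 to 2.70). The ratio was highest in the adult, where RPL3 was lowest, and the kid and youth intervals overlapped. The 2 genes share much of their coding sequence, an L3-like copy (gene 102184218) was listed at 20.4, 13.2 and 13.5 FPKM in kid, youth and adult, and the placing of reads that match more than 1 gene was not given in the sources used here. A ratio within a library does not depend on its scaling.

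Elongation factor 1A, which brings each aminoacyl-tRNA to the ribosome, also has a general form, EEF1A1, and a muscle and nerve form, EEF1A2. EEF1A2 was at 1925 FPKM in the kid, 1985 in the youth and 2579 in the adult, and EEF1A1 was at 729, 635 and 486 FPKM. The ratio of EEF1A2 to EEF1A1 was 2.64 in the kid (2.60 to 2.68), 3.12 in the youth (3.07 to 3.18) and 5.31 in the adult (5.22 to 5.40). The muscle form was thus higher relative to the general form in the adult for both proteins.

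**Figure D4:**
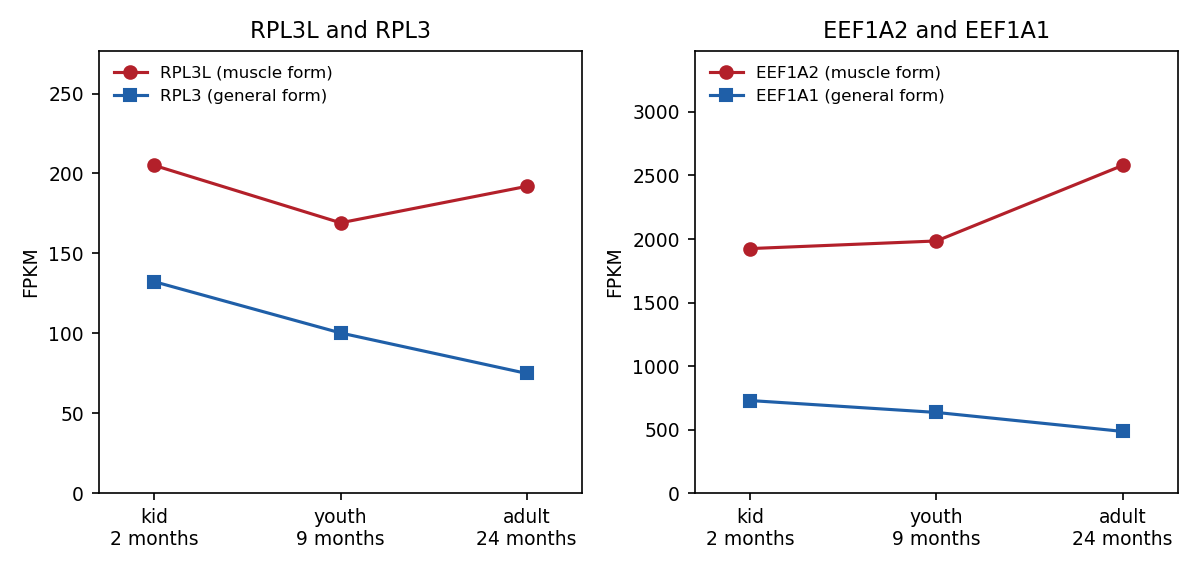
Levels in FPKM by stage of RPL3L with RPL3 (left) and EEF1A2 with EEF1A1 (right), 1 library per stage and axes starting at 0. The muscle forms lie above the general forms at every age and the gap is widest in the adult.

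Other paralogs were less abundant than their main genes. The ratio of RPL26L1 to RPL26 was 0.0410 in the kid, 0.0534 in the youth and 0.0619 in the adult, and that of RPL7L1 to RPL7 was 0.0467, 0.0594 and 0.0615. RPL36AL, nearly identical in protein to RPL36A, was at 179, 147 and 141 FPKM in kid, youth and adult beside 386, 314 and 262 FPKM for RPL36A. Its ratio to RPL36A was 0.464, 0.468 and 0.538. RPS27L was at 114, 89.9 and 88.9 FPKM, and its ratio to RPS27 was 0.226, 0.230 and 0.259 in kid, youth and adult. For these 4 paralogs the ratio to the main gene was highest in the adult, though the intervals of adult and youth overlapped for RPL26L1, RPL7L1 and RPS27L. The L22-like 1 gene (102177004) was at 9.29, 11.1 and 6.56 FPKM in kid, youth and adult. Its ratio to RPL22 was 0.0195, 0.0249 and 0.0191, so it was not highest in the adult, and its intervals overlapped in each pair. RPL10L and the row with the symbol RPL22L1 were listed at 0 in all libraries.

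Some ribosomal proteins carry other product texts and so stood outside the rule. RPSA, deposited as laminin receptor 1, was at 628 FPKM in the kid, 557 in the youth and 548 in the adult. RPS24 was at 465, 382 and 333 FPKM in kid, youth and adult. RPS4X was at 268, 208 and 172 FPKM, 1.56-fold lower in the adult than in the kid. These 3 had the order kid above youth above adult that most of the set had. RPS23, deposited as uncharacterized, was at 87.2, 97.6 and 81.2 FPKM.

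FAU and RACK1 also fell outside it. FAU, a ubiquitin-like protein made joined to a small-subunit protein, was at 626 FPKM in the kid, 495 in the youth and 456 in the adult. RACK1, a signalling scaffold on the small-subunit head, was at 710, 687 and 592 FPKM in kid, youth and adult. The kid was highest for both.

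An S25-like row (gene 102172558), at 843, 582 and 483 FPKM in kid, youth and adult, was 1.74-fold lower in the adult than in the kid, while the row with the symbol RPS25 carries a trafficking-complex product text and stood at 16.9, 13.7 and 16.3 FPKM. Another S25-like row (gene 102190429) held 2 reads in the kid and 3 in the youth but 314 in the adult, or 0.257, 0.409 and 34.7 FPKM. The S25 rows were singled out after their values were seen, and reads may be split among them.

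Ribosomal protein genes have many processed copies in mammalian genomes. Of the 67 coding genes, 47 had at least 1 row named as a pseudogene or "-like" copy of the same protein, 142 such rows in all, and 15 of the 142 had a mean of at least 1 FPKM. Together the copies held 2.85% of the FPKM of members plus copies in the kid, 2.73% in the youth and 2.85% in the adult. The largest of them was the S15-like row (gene 102191702), at 744, 607 and 606 FPKM in kid, youth and adult. Whether that row is a processed copy was not tested. In the kid, copies exceeded 10% of the sum for 4 genes, RPS15, RPS2, L37a and RPL3, and in the youth and adult for RPS13 as well. The 2 pseudogene rows in the comparison were an S2 pseudogene (102171034) at 178, 139 and 139 FPKM in kid, youth and adult and an L6 pseudogene (102182477) at 21.7, 18.6 and 15.7 FPKM. Both were highest in the kid, like the genes they resemble. RPS19BP1 was at 17.4, 10.5 and 12.6 FPKM, 1.67-fold lower in the youth than in the kid (1.34 to 2.08).

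The rest of the translation machinery was less uniform. The lists named here were drawn up with earlier results of these data known. Among 18 elongation factors and other TOP mRNAs, 14 were lower in the adult than in the kid, where 62.5% of all rows were. Of them, 6 were called, where 22.4% of all rows were, and the median was -0.16. With median-ratio scaling 12 were lower and the median was -0.05. VIM, the intermediate filament of mesenchymal cells, had the largest difference, at 247 FPKM in the kid, 203 in the youth and 159 in the adult. TPT1, a growth-related protein and the most abundant TOP mRNA on the list, was at 4905, 5979 and 4656 FPKM in kid, youth and adult. EEF2, which moves the ribosome along the mRNA, was at 513, 480 and 505 FPKM. TPT1 was therefore highest in the youth and EEF2 nearly level, so not every TOP mRNA followed the ribosomal proteins. PABPC1, which binds the poly(A) tail, was at 74.5, 75.8 and 50.3 FPKM, and NACA, which meets the new chain at the tunnel exit, was at 143, 110 and 104 FPKM.

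The 29 initiation factors had medians of 0.01 for youth minus kid, -0.01 for adult minus youth and -0.01 for adult minus kid, and 3 were called lower in the adult than in the kid, where 22.4% of all rows were. EIF1, the most abundant, was at 709 FPKM in the kid, 716 in the youth and 741 in the adult, and EIF4H, with the largest adult difference from the kid, was at 170, 160 and 113 FPKM. EIF2B1 was at 12.0, 8.79 and 9.73 FPKM and EIF2B2 at 14.7, 12.0 and 18.5 FPKM in kid, youth and adult, the widest of the list for the other 2 pairs. The 43 ribosome assembly factors had a median of -0.07 for adult against kid, with 4 called lower and 5 called higher in the adult, where 22.4% and 9.71% of all rows were. NCL, the most abundant, was at 98.4, 89.2 and 72.8 FPKM and NOP14 at 3.76, 3.85 and 7.03 FPKM in kid, youth and adult. RRP9 was at 1.67, 2.60 and 2.41 FPKM. Both lists lay nearer to the median of all rows than the ribosomal proteins did. With median-ratio scaling the median for adult against kid was 0.11 for the initiation factors and 0.03 for the assembly factors. Of the assembly factors, 2 were then called lower and 7 higher, where 14.9% and 15.7% of all rows were.

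The 17 genes of RNA polymerase I and of the regulators around MYC had a median of -0.16 for adult against kid (-0.05 with median-ratio scaling). As deposited, 5 of them were called lower in the adult, where 22.4% of all rows were. MYC, a transcription factor that drives ribosome production, was at 23.3 FPKM in the kid, 16.1 in the youth and 5.77 in the adult, 4.04-fold lower in the adult than in the kid (3.37 to 4.86). Its partner MAX was at 39.7, 35.8 and 28.5 FPKM. The 17 genes of mTORC1 and its readers had a median of 0.01 for adult against kid, and of 0.11 with median-ratio scaling. Among them SESN1, an inhibitor of mTORC1, was at 55.5, 45.6 and 32.2 FPKM in kid, youth and adult, and DDIT4, another inhibitor, was at 145, 147 and 85.3 FPKM. SESN3 was at 9.47, 7.43 and 6.01 FPKM.

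The mitochondrial ribosome, which translates the few mRNAs of the mitochondrial genome, had other values, and the difference between the lists was not tested. Its 71 protein genes had a median difference of -0.14 for youth minus kid, 0.25 for adult minus youth and 0.16 for adult minus kid. The adult was higher than the youth for 65 of 71 as deposited and for 59 to 65 under the other scalings, and 24 were called higher as deposited (15.7% of all rows tested were). For adult against kid, 56 of 71 were higher in the adult, where 67 of 70 cytosolic rows were lower. MRPL33, the most abundant, was at 125, 108 and 122 FPKM in kid, youth and adult, MRPS18A at 59.5, 53.9 and 100 FPKM, and MRPS6 at 27.7, 53.9 and 48.7 FPKM.

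**Figure D5:**
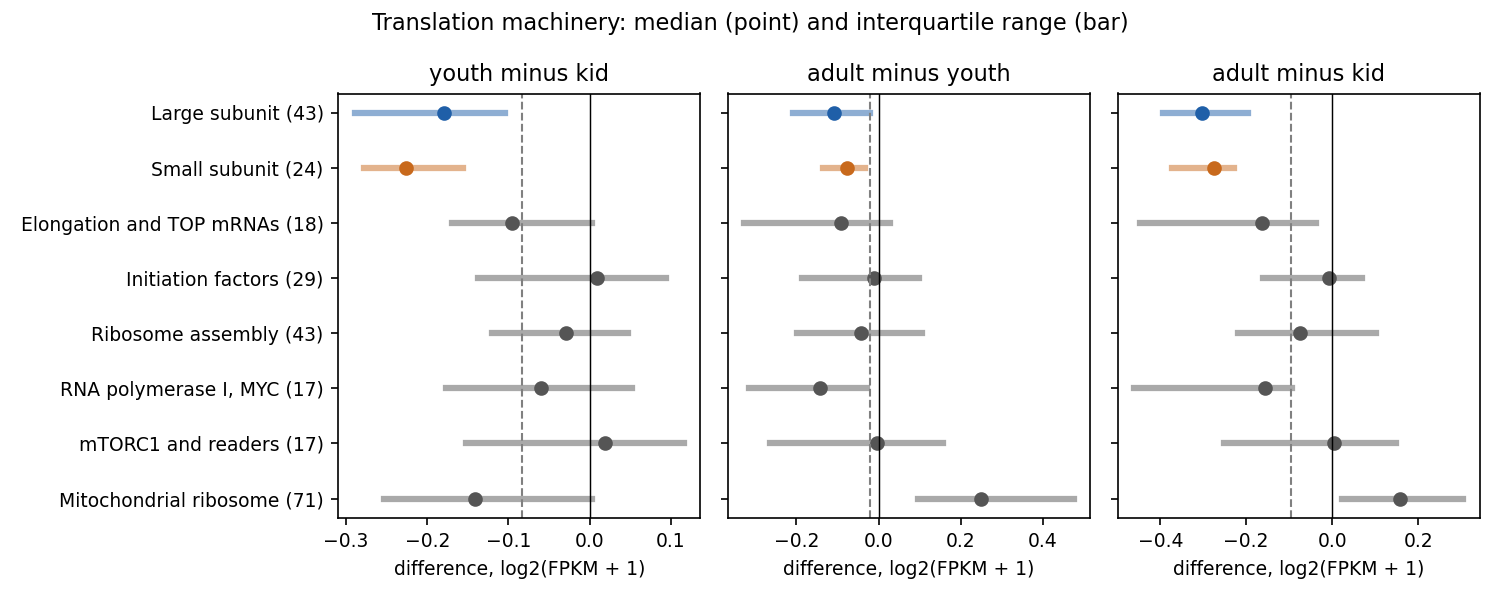
Median (point) and interquartile range (bar) of the difference in log2(FPKM + 1) for lists of the translation machinery, with the number of genes in brackets and 1 panel per pair of libraries. The solid line marks 0 and the dashed line the median of all rows tested. The medians of the 2 cytosolic subunits lie left of the dashed line in each panel, while that of the mitochondrial ribosome lies right of it for adult minus youth and adult minus kid.

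Markers of other cells of the muscle also differed between libraries. The 8 macrophage markers with a row summed to 72.2 FPKM in the kid, 78.2 in the youth and 39.4 in the adult. All 8 were called lower in the adult than in the kid, where 22.4% of all rows were. The 8 fibroblast markers summed to 1065, 1305 and 914 FPKM, and the 8 lymphocyte markers to 11.7, 13.1 and 8.27 FPKM, in kid, youth and adult. The 5 Schwann cell markers summed to 207, 121 and 79.2 FPKM, the 5 adipocyte markers to 189, 127 and 137 FPKM, and the 6 endothelial markers to 201, 175 and 173 FPKM. The 4 adipocyte markers tested had a median of -1.33 for youth minus kid, 0.45 for adult minus youth and -0.69 for adult minus kid. The 11 genes of dividing cells summed to 21.4, 19.5 and 15.4 FPKM. All of these sums were lower in the adult than in the kid, as most ribosomal protein mRNAs were, while the 5 skeletal muscle genes summed to more in the adult. The sums hide members that went the other way. Of the 4 genes of dividing cells tested, 2 were lower and 2 higher in the adult than in the kid. Of the 6 endothelial markers, 4 were lower and 2 higher. In the other lists of non-muscle cells every marker tested was lower as deposited. With median-ratio scaling 3 of 8 fibroblast markers and 1 of 4 lymphocyte markers were higher in the adult than in the kid. With upper-quartile scaling 1 of 8 fibroblast markers was. The part that cell make-up plays in the ribosomal protein differences was not tested.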

How the data were processed

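Per the labels, 3 RNA-seq libraries of goat longissimus dorsi were made, 1 per stage. The values are FPKM, deposited by the authors as 1 table with a column per library. FastQC, TopHat2 and DESeq were used, per the submitters' processing notes. Which annotation, genome build and counter were used, and how strand and reads matching several genes were treated, was not given in the sources used here, and these choices weigh on genes with many copies. Gene symbols came from a RefSeq goat table (ARS1.2), in which all 77 rows and 21743 of 24689 rows in all matched.

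From the deposited FPKM, differences were taken on log2(FPKM + 1) over rows with a mean of at least 1 FPKM. This scale understates differences of low genes. A row was called where FPKM + 1 was at least 20% lower or 25% higher. Whole reads and gene lengths were recovered from the steps between FPKM values, within a tolerance of 0.00005, for all 16054 rows above 0 in 3 libraries. The smallest length that fits was kept, so reads and length of a gene can both be short by a shared factor. For the reads this widens the interval. For the lengths it means that a recovered length can fall below the true one. The reads given to genes were 95.3% of the total behind the FPKM values in the kid, 94.9% in the youth and 96.3% in the adult. Intervals are exact conditional binomial intervals at 95% and cover counting error only. No count model was run, since 1 library per stage leaves no replicate spread. Ratios of FPKM within a library compare genes per length.

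The members and gene lists were chosen with earlier results of these data known. Named members were the 5 highest and 5 lowest differences in each pair of libraries, the 5 most and 5 least abundant, every member at least 1.5-fold apart, the stalk, RPL5 and RPL11, and RPL3, RPSA, RPS29, RPL41, RPS27, RPL22 and RPL39. RPL41 was not matched. Of the other lists, the gene with the largest difference and the most abundant gene were named, with every paralog and fusion gene, EEF1A1, EEF1A2, EEF2 and TPT1, but marker lists are given by their sums, and some genes the rule would name are not reported here. RPL31, RPL36A, RPL7, and the copies outside the rule were named for context. Alternatives were other folds, pseudocounts, filters and scalings, and 3 definitions of the members chosen after seeing the data. The scripts used Python 3.11.15, numpy 2.4.6, pandas 2.3.3, scipy 1.17.1 and matplotlib 3.10.9, and the read recovery was tested on simulated data.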

Additional observations from a re-analysis of the deposited data

How the results depend on the processing

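Under 13 alternatives for the counts and 11 for the medians, the median difference of the 70 rows kept its sign in each pair of libraries. It ranged from -0.22 to -0.12 for youth against kid, from -0.15 to -0.07 for adult against youth and from -0.30 to -0.18 for adult against kid. With a fold of 1.1, 51, 28 and 60 of the 70 rows were lower (youth against kid, adult against youth, adult against kid), or 72.9%, 40% and 85.7% where 40.1%, 35.4% and 44.9% of all rows were. With a fold of 1.5 the counts were 2, 0 and 5, or 2.86%, 0% and 7.14% where 3.77%, 5.45% and 6.64% of all rows were. Scaling to the median ratio of all rows tested gave 4 rows (all rows 9.87%) and a median of -0.12 for youth against kid, and 17 rows (all rows 14.9%) and a median of -0.18 for adult against kid. Scaling to the upper quartile gave 6 rows (all rows 11.6%) for youth against kid and a median of -0.23 for adult against kid. Rescaling without the 50 most abundant rows gave 6 rows (all rows 11.2%) and a median of -0.15 for youth against kid, and 5 rows (all rows 20.4%) for adult against youth. A lower fold admits more rows by construction, and the cause of the moves with scaling was not tested. The direction turned for at most 10 of the 70 rows under any scaling. Leaving out a replicate was not possible with 1 library per stage. No paired analysis was possible because each stage has 1 library. At these depths RPS15, with 66 reads recovered in the adult, has the widest interval of the coding genes, 0.705 to 1.48 for how many fold lower it was in the adult than in the kid.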
